A study of Mus musculus with 2 samples.

Results

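The genes described here encode the proteins of the cytosolic ribosome of the mouse, and their chromatin was read by DNase-seq in limbs of embryos at day 14.5. Members were the protein-coding genes of GENCODE M21 on mm10 whose symbol is Rpl or Rps followed by digits, with or without final letters, together with Rplp0, Rplp1, Rplp2 and Rpsa. The Rps6k kinase genes, names with -ps and names that end in a digit after letters were left out, so Rps3a1, which encodes a small subunit protein, is not a member. The rule gave 82 members, 50 of the large and 32 of the small subunit, among 21938 protein-coding genes, and no measured value was used to choose them. They lie on 19 chromosomes, 4 of them on X and 14 on chromosome 7.

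DNase I cuts DNA where nucleosomes are displaced, so a peak of cuts marks open chromatin. The data are 1 group of 2 biological replicates of whole limb, strain B6NCrl, with no treatment named in the labels, from embryos of both sexes pooled. The labels give both replicates the same donor identifier, so the spread between them may be technical. Replicate 1 has 208965 peaks and replicate 2 has 196870, nearly all 150 bp wide, each with a signal given by the authors in their own unit. Signals are therefore set side by side within a list, or as the percentile of a peak among all peaks of its list. The number of reads behind each list is unknown. The limb holds many cell types, and openness in more cells cannot be told apart from more cutting per cell. As a check of the tissue, all 7 limb genes listed (among them Prrx1, Pitx1, Tbx5 and Hoxd13) had a peak of both replicates at a transcription start site (TSS). None of Alb, Gata1 and Neurod1 did, though each had 1 TSS peak in 1 replicate, Alb in replicate 1 and Gata1 and Neurod1 in replicate 2. A TSS peak of both replicates was found at 65.1% of all protein-coding genes. Median CpG ratios, a measure defined below, were 0.702 over the limb genes and 0.319 over the other 3, so the check is a weak one.

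The ribosome translates every mRNA. Its proteins assemble with ribosomal RNA in nearly equal numbers, so their genes are active together in growing cells and are commonly used as housekeeping genes. Their promoters are known for CpG islands, for sites of ETS, YY1 and SP factors, and for transcripts that begin with an unbroken run of pyrimidines, the 5′ terminal oligopyrimidine (TOP) tract, through which the mTOR pathway controls their translation. Introns of many of them hold small nucleolar RNAs (snoRNAs) that guide the modification of ribosomal RNA.

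Nearly all of these genes had an open promoter. Peaks of replicate 1 counted as shared where 1 peak of replicate 2 covered 50% or more of their length, and a gene was called open when a shared peak lay within 500 bp of any of its annotated TSSs. Open promoters were found at 78 of 82 ribosomal protein genes (95.1%) and at 14206 of 21856 other protein-coding genes (65.0%), and over all protein-coding genes the percentage was 65.1%. Counted in each replicate alone, 79 ribosomal protein genes had a TSS peak in replicate 1, against 69.4% of all protein-coding genes, and 78 had one in replicate 2, against 68.2%. The small subunit had 31 of 32 genes open and the large subunit 47 of 50. With hotspots, the broader regions the authors called, in place of peaks, 79 ribosomal protein genes had one in the window in both replicates, against 67.2% of all protein-coding genes. Since members share 2 libraries, these and the following comparisons with other genes are descriptions with no test.

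The sequences that surround the starts of open and closed members are given here, so that the pyrimidine runs described further on can be read. Each line runs 20 bases before to 20 after a RefSeq start on the gene's strand (GRCm38.p6), and capitals mark the longest run of C and T that touches the 10 bases on either side of the start. The first 4 have the longest runs among members with a sequence in the table, from 17 to 21 bases. Rpl28 is among the 5 strongest, Rps6 and Rpl38 are well studied members, Rpl5 and Rps4x are among the 5 weakest open members, and the last 4 are the closed genes. These lines were chosen after the values were seen.
Rpl7a (chr2:26910787-26910826, plus strand): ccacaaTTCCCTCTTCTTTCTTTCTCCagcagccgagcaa
Rpl27a (chr7:109519175-109519214, plus strand): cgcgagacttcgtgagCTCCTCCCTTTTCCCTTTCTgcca
Rpl35 (chr2:39005112-39005151, minus strand): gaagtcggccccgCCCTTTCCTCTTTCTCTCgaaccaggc
Rpl15 (chr14:18270967-18271006, minus strand): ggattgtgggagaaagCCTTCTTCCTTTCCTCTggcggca
Rpl28 (chr7:4792945-4792984, plus strand): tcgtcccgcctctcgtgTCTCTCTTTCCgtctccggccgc
Rps6 (chr4:86857348-86857387, minus strand): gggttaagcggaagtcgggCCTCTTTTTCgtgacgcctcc
Rpl38 (chr11:114668560-114668599, plus strand): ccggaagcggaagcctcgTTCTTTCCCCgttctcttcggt
Rpl5 (chr5:107900508-107900547, plus strand): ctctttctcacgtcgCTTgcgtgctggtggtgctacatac
Rps4x (chrX:102189372-102189411, minus strand): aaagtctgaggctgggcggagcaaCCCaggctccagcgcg
Rpl10l (chr12:66284382-66284421, minus strand): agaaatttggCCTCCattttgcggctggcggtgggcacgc
Rpl39l (chr16:10170208-10170247, plus strand): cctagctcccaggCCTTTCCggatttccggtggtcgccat
Rps27rt (chr9:114982720-114982759, minus strand): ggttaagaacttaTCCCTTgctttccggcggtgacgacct
Rpl3l (chr17:24727806-24727845, plus strand): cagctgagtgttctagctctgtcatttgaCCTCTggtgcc

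The 4 closed members were Rpl10l, Rpl3l, Rpl39l and Rps27rt. Rpl10l is a copy of the X-linked Rpl10 that acts in male germ cells, Rpl39l is a testis copy of Rpl39, Rpl3l replaces Rpl3 in heart and skeletal muscle, and Rps27rt carries the name of a retrotransposed Rps27. Rpl10l, Rpl3l and Rps27rt had no peak at a TSS in either replicate. Rpl39l had 1 weak peak in replicate 1, with a signal of 35 at percentile 35.6, and none in replicate 2. Of the 6 members that are paralogues of another member, 2 were open, and of the 76 that are not, all 76 were. The open copies were Rps27l, known as a p53 target, which had 128 in replicate 1 and 99 in replicate 2, and Rpl36al, which had 131 and 111. Their parent genes Rps27 and Rpl36a had 125 and 114, and 119 and 99, so both copies lay within the range of the other open members.

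CpG content separated the closed copies only in part. The CpG ratio is the number of CpGs observed over that expected from the base composition within 500 bp of a TSS, taken at the TSS where it is highest. Its median was 0.848 over ribosomal protein genes and 0.625 over other protein-coding genes. Rpl3l had 0.289, Rps27rt 0.408 and Rpl39l 0.550, but Rpl10l had 0.720. Of members with a ratio of at least 0.6, 77 of 78 were open (98.7%), against 10823 of 11450 other genes with such a ratio (94.5%). Of those under 0.6, 1 of 4 members was open, Rps4x with a ratio of 0.558, against 3383 of 10406 other genes (32.5%). Beside other genes of like CpG content, the percentage open of ribosomal protein genes thus differed by a few points.

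Peaks at open ribosomal protein promoters were strong. For each open gene the shared TSS peak of highest mean percentile was taken as its strongest. The median signal was 128.5 in replicate 1 and 109.5 in replicate 2 over the 78 open ribosomal protein genes, and 116 in replicate 1 and 89 in replicate 2 over other open genes. As mean percentile the median was 98.2 (interquartile range 97.4 to 99.2) for ribosomal protein genes and 96.0 (88.6 to 98.2) for other open genes. Medians within a replicate were 98.2 in replicate 1 and 98.6 in replicate 2 for ribosomal protein genes, and 96.1 and 95.7 for other open genes. The lowest open member stood at 94.2, and 8712 of 14206 other open genes stood at or above it. The lowest other open gene, in that far larger set, stood at 0.742. The ribosomal protein genes took up a narrow band at the top, which most other open genes shared.

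All 78 lay in the top 10% of both lists, as did 70.0% of all open protein-coding genes. Above the median of all open genes, 96.0, were 67 of the 78 (85.9%), above the upper quartile 40 (51.3%), and below the lower quartile, 88.7, none. Among genes with a CpG ratio of at least 0.6 the median percentile was 98.3 for ribosomal protein genes and 96.9 for other open genes, a smaller gap than over all genes. The hotspot at the TSS reached the authors' ceiling of 100 in −log10 q-value for all 78 in both replicates, and for 92.0% of other open genes in replicate 1 and 86.3% in replicate 2. Hotspot widths were close: the median was 1078.5 bp in replicate 1 and 680 bp in replicate 2 for ribosomal protein genes, and 1061 and 697 bp for other open genes.

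**Figure D1:**
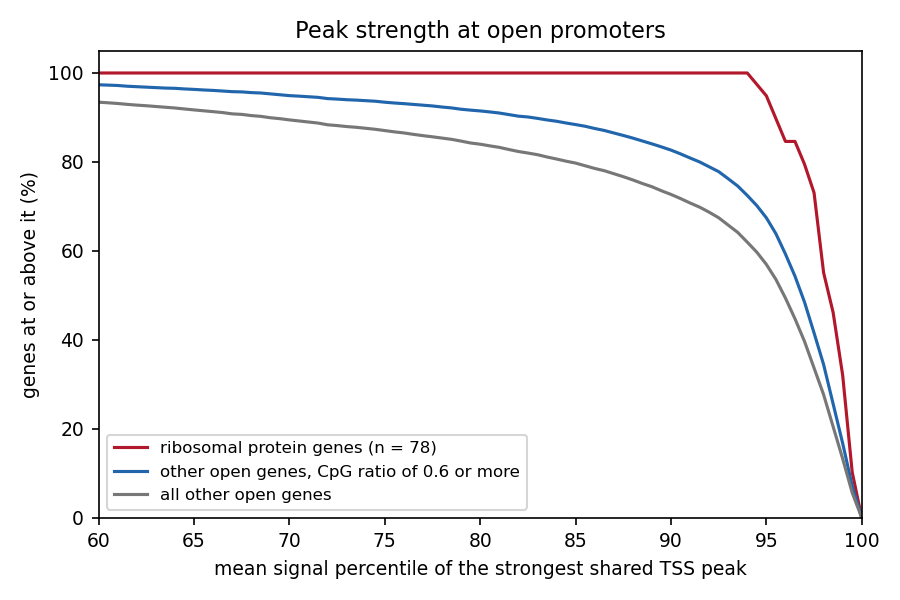
Percentage of open genes (y axis) whose strongest shared TSS peak has at least the mean signal percentile on the x axis, drawn from percentile 60 upward. All 78 ribosomal protein genes lie above percentile 94, while the curves of other open genes, with and without the limit on CpG ratio, fall earlier.

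The strongest peak among these genes stood at Rpl13a, a large subunit protein that also takes part in silencing inflammatory mRNAs, and whose introns hold 4 snoRNAs. Its signal was 143 in replicate 1 and 123 in replicate 2 (chromosome 7, 45128876 to 45129025), a mean percentile of 99.9, with the peak centre at -190 bp from the nearest TSS (negative values are upstream). Rpl3, which reaches the peptidyl transferase centre, followed with 141 and 120 (chromosome 15, 80083376 to 80083525). Rpl28 had 137 and 120, and Rps29 had 136 and 122. Among all 14284 open genes, in order of mean percentile, these 4 ranked 122, 301, 599 and 611. Rps29 had this signal in a hotspot of only 159 bp in both replicates, the narrowest among open members. Of the 10 strongest members 6 lie on chromosome 7.

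Among the 5 weakest open members were Rps27a, Rpl5, Rps4x and Rpl4. Rps27a, which encodes ubiquitin fused to a small subunit protein, had 118 in replicate 1 and 72 in replicate 2, a mean percentile of 94.2. Rpl5, which carries 5S ribosomal RNA and binds Mdm2 together with Rpl11, had 104 and 84 (94.4). Rps4x, on the X chromosome, had 120 and 75 (94.8), and Rpl4 had 117 and 80 (95.1). The peak of Rpl4 lay nearer to the start of Zwilch, a gene on the other strand. Rps27a, Rps4x and Rpl4 were lower in replicate 2, where their percentiles were 91.9, 92.8 and 94.0, against 96.5, 96.8 and 96.3 in replicate 1. Another shared TSS peak of Rps27a (chromosome 11, 29548116 to 29548265) went the other way, with signals of 90 and 80 at percentiles 90.1 and 94.0. Rpl5 was low in both, at 94.0 and 94.8.

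The percentile was higher in replicate 1 for 29 of the 78 and in replicate 2 for 49. It differed by less than 3 points for 75 of the 78 (96.2%), against 73.0% of other open genes and 96.3% of those at or above the lowest open member. The median difference of replicate 1 minus replicate 2 was -0.286 points (interquartile range -0.772 to 0.367) over ribosomal protein genes and 0.405 over other open genes. Among the larger differences were 4.58 points at Rps27a and 4.02 at Rps4x, and the most extreme in the other direction was -2.82 at Rps15a, whose signals were 114 and 110. In all 77 pairs of neighbours in the order of members, the gap in mean percentile was smaller than the larger of the pair's differences between replicates.

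**Figure D2:**
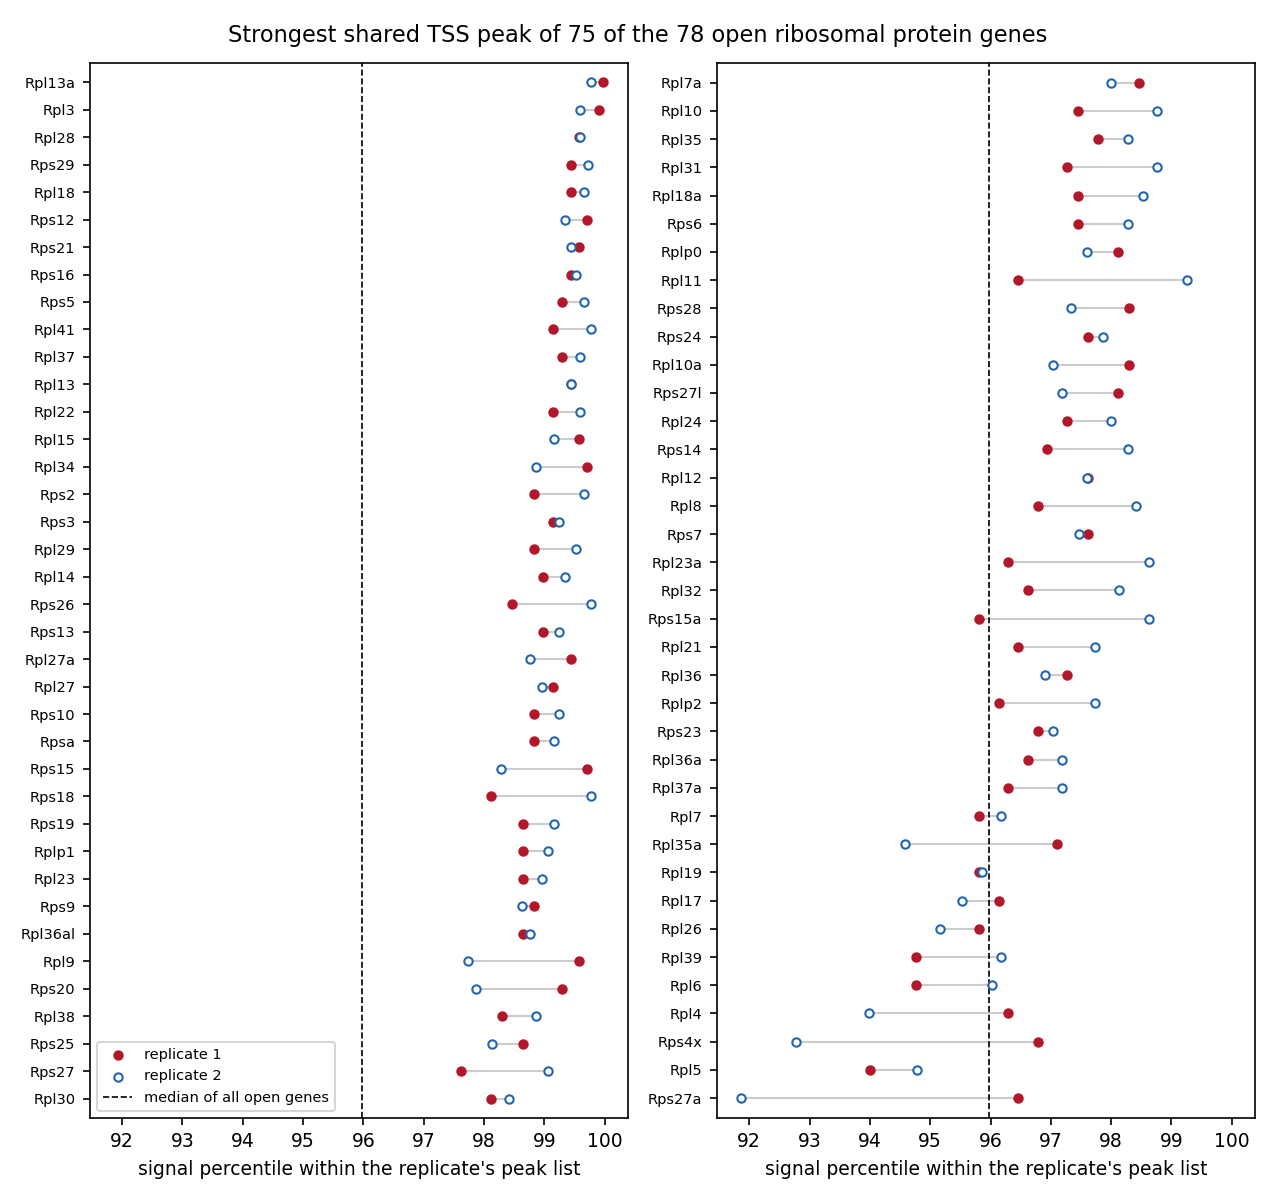
Signal percentile (x axis) of the strongest shared TSS peak of 75 of the 78 open ribosomal protein genes, in order of their mean, with filled circles for replicate 1, open circles for replicate 2 and a dashed line at the median of all open protein-coding genes (96.0). Most pairs lie right of the line, and the widest gaps are at Rps27a and Rps4x, both toward replicate 1.

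By role, the stalk proteins that recruit elongation factors were spread over the band. Rplp1 had signals of 131 and 114 (percentile 98.9), Rplp0 128 and 102 (97.9) and Rplp2 116 and 103 (96.9). Rpsa, a small subunit protein also called the laminin receptor precursor, had 132 and 115 (99.0). Rps6, the substrate of the S6 kinases, had 124 and 107 (97.9). Rpl10, which joins the large subunit late and lies on X, had 124 and 111 (98.1), and Rpl39, at the exit tunnel and also on X, had 108 and 92 (95.5). Median percentiles were 96.2 over the 4 members on X and 98.4 over the open autosomal members, in libraries of pooled sexes. Median CpG ratios were 0.689 over the members on X and 0.849 over the autosomal members. A cause of the difference in percentile was not tested. The medians of the small and the large subunit were 98.7 and 98.0.

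Members known from mutants in mice or from human blood disorders spread through the same band. Rpl38, whose loss in mice changes Hox mRNA translation and the axial skeleton, had 129 and 112 (98.6), and Rpl24, mutated in the Belly spot and tail mouse, had 123 and 105 (97.6). Rps19, the most often mutated gene in Diamond-Blackfan anaemia, had 131 and 115 (98.9), Rpl11, the partner of Rpl5, 118 and 116 (97.9), and Rps14, in the region lost in the human 5q- syndrome, 121 and 107 (97.6). Rps20 had 135 and 104 (98.6), Rps7 125 and 101 (97.5) and Rpl22, needed for T cell development in mice, 134 and 120 (99.4). None of these fell outside the range of the other members.

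Peaks sat just upstream of the start. The centre of the strongest peak lay at a median of -43.5 bp from the nearest TSS (interquartile range -68.5 to -7.5) for ribosomal protein genes and at -38 bp (-85 to -2) for other open genes. It was upstream in 64 open members (82.1%) and downstream in 14 (17.9%), against 75.8% and 23.6% of other open genes. Among the 8712 other open genes with a mean percentile at or above that of the lowest open member, it was upstream in 82.6%. Between 50 bp upstream and 49 bp downstream lay 41 of 78 centres (52.6%), against 46.9% of those of other open genes, and 33 (42.3%) lay 51 to 150 bp upstream, against 30.7%. Farther upstream were 3 (3.85%), against 11.1%. No member had its centre 150 bp or more downstream, against 7.33% of other open genes. The peak held an annotated TSS in 62 of 78 (79.5%), against 61.5%. Members have a median of 6 annotated TSSs and other protein-coding genes, open or not, 3. Other genes with a CpG ratio of at least 0.6 have a median of 5. Where a gene has more annotated TSSs, the nearest is closer by construction.

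Measured from the outermost 5′ end alone, 75 of 82 ribosomal protein genes (91.5%) and 59.0% of other protein-coding genes were open, with median positions of -26 and -30 bp. For 7 open members (8.97%) the strongest peak lay over 500 bp from that end, at an inner annotated start. The distance was 1.36 kb at Rps10, 1.89 kb at Rps2, 1.91 kb at Rpl17, 2.57 kb at Rpl18, 3.53 kb at Rps24, 8.42 kb at Rpl3 and 27.5 kb at Rps14. Rps24 had peaks at both, with signals of 125 and 104 at the inner and 118 and 102 at the outer start, and Rpl18 had 136 and 121 at the inner and 137 and 117 at the outer one.

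**Figure D3:**
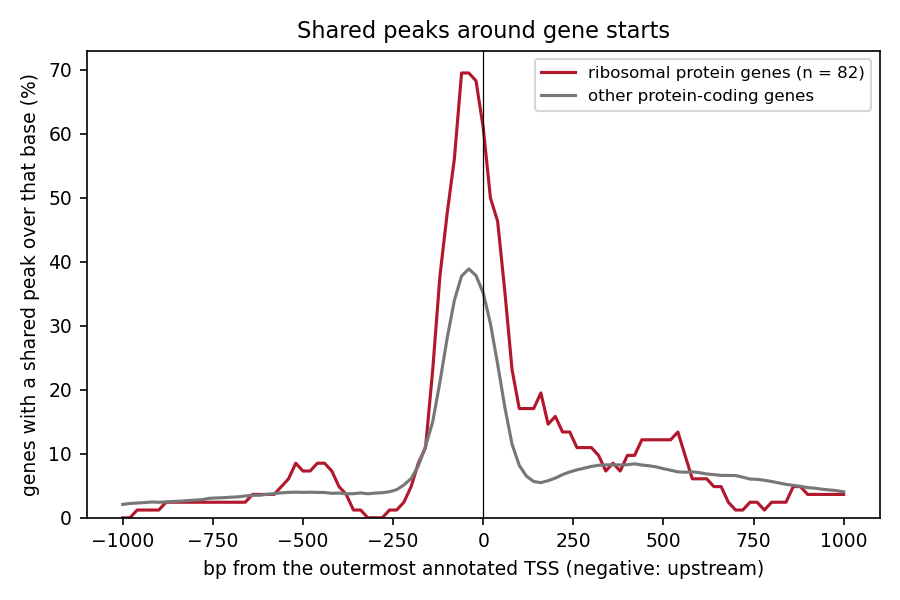
Percentage of genes (y axis) with a shared peak over each base, by distance in bp from the outermost annotated TSS (x axis, negative upstream). The curve of the 82 ribosomal protein genes reaches 69.5% at -60 bp and that of other protein-coding genes 38.9% at -40 bp.

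Shared TSS peaks were counted for each gene. The 78 open ribosomal protein genes had 131 shared TSS peaks in all: 42 had 1, 22 had 2, 11 had 3, and Rps24, Rpl15 and Rpl3 had 4. A single peak was found at 53.8% of open ribosomal protein genes and at 49.4% of other open genes. In the lists of the replicates themselves, before peaks were matched, 12 of the 78 had a single TSS peak in replicate 1 (15.4%) and 22 in replicate 2 (28.2%), against 28.5% and 29.1% of other open genes. The count differed between replicates at 45 of the 78, with more peaks in replicate 1 at 35 and in replicate 2 at 10. At Rpl15 the strongest peak had signals of 137 and 115, and the other 3 had 41 to 61 in replicate 1 and 30 to 33 in replicate 2. At Rpl3 the other 3 had 60 to 87 and 30 to 62. The added peaks at both genes were thus far weaker than the main one.

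Promoters of 9 members (11.0%) and of 6.77% of other protein-coding genes faced a coding gene on the other strand with starts within 1000 bp. Among genes with a CpG ratio of at least 0.6 the percentages were 11.5% and 11.3%. These pairs were Rps28 with Ndufa7, Rps27 with Rab13, Rpl9 with Lias, Rps2 with Rnf151, Rps24 with Polr3a, Rpl36al with Mgat2, Rpl7a with Med22, Rpl35a with Iqcg and Rpl4 with Zwilch. The gap was 10 bp at Rps28 and 271 bp at Rpl4. The strongest peak of Rpl4 was centred at -404 bp from its nearest start, the farthest upstream among open members. This centre lay beyond the start of Zwilch and nearer to it than to Rpl4. No other TSS peak of Rpl4 was shared, so its call as open rests on this peak. A peak at the paired starts cannot be given to one gene or the other. The strongest peaks of Rps2 and Rps24 lay elsewhere, at inner starts 1.89 and 3.53 kb from the outermost one. At Rps2 no other TSS peak was shared. Open members in pairs had a median percentile of 98.2, those inner peaks included, and the rest 98.3.

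Small nucleolar RNAs were annotated within 29 members (35.4%), 56 in all, against 1.14% of other protein-coding genes. Rpl4 held 5 and Rpl13a 4. All 29 hosts were open, as were 49 of 53 members that host none. The median percentile of hosts was 98.3 and that of open members that host none 98.0.

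Sequences from 250 bases before to 50 after each start were available from RefSeq for 62 of 82 members, as 74 promoters, and for 32851 promoters of all genes. Letters were searched on both strands. The ETS letters CCGGAAG stood in 26 of 74 ribosomal protein promoters (35.1%, 95% Wilson interval 25.2 to 46.5), in 15.6% of promoters of other open protein-coding genes and in 8.86% of all promoters. The letters TCTCGCGA, the first 8 of the palindrome TCTCGCGAGA and called the palindrome part here, stood in 11 (14.9%, 8.51 to 24.7), against 1.87% of promoters of other open genes and 0.995% of all promoters. Those of YY1, AAGATGGC, stood in 7 (9.46%, 4.66 to 18.3), against 3.90% and 2.75%. These intervals cover counting error, and promoters of 1 gene can overlap. Counted once per gene, ETS letters were found in 25 of 62 members and the palindrome part in 10, 40.3% and 16.1%, against 18.3% and 2.21% of other open genes. The YY1 letters, counted the same way, were found in 5 (8.06%), against 4.79%.

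The GC box of SP and KLF factors, GGGCGG, was no more frequent at ribosomal protein genes than at other open genes. It stood in 43 of 74 promoters (58.1%, 46.7 to 68.7), against 61.3% for other open genes and 35.7% of all promoters. CCAAT stood in 31.1%, against 37.4% for other open genes and 37.4% of all. TATAAA stood in 8.11%, against 7.32% and 13.6%. The cyclic AMP response letters TGACGTCA stood in 5 promoters (6.76%), against 2.93% and 1.79%, the E-box CACGTG in 10.8%, against 9.64% and 7.15%, and the NRF1 letters GCGCATGC in 4.05%, against 4.85% and 2.71%. The intervals of all 6 motifs held the value for other open genes, that of TGACGTCA only at its edge (2.92 to 14.9, against 2.93%). Counted once per gene, TGACGTCA was found in 5 of 62 members (8.06%), against 3.49% of other open genes. The GC box, counted the same way, was found in 37 (59.7%), against 68.4%, and CCAAT in 20 (32.3%), against 42.8%. TATAAA was found in 9.68%, against 8.91%, the E-box in 9.68%, against 11.6%, and the NRF1 letters in 4.84%, against 5.75%.

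Runs of pyrimidines at the start were long. A run of at least 8 C or T that touches the 10 bases on either side of the start was found in 29 of 74 ribosomal protein promoters (39.2%, 28.9 to 50.6), against 13.6% for other open genes and 13.7% of all promoters. For at least 10 the count was 22 (29.7%, 20.5 to 40.9), against 7.18% and 6.97%. The median run was 6 bases over ribosomal protein promoters and 4 over other promoters. Rpl28, printed above, has 11 and Rps6 and Rpl38 have 10, while Rpl5 and Rps4x have 3, and the closed copies have 5 to 7. Not every member thus begins with a run in this table, and a RefSeq start need not be the start used in limb.

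**Figure D4:**
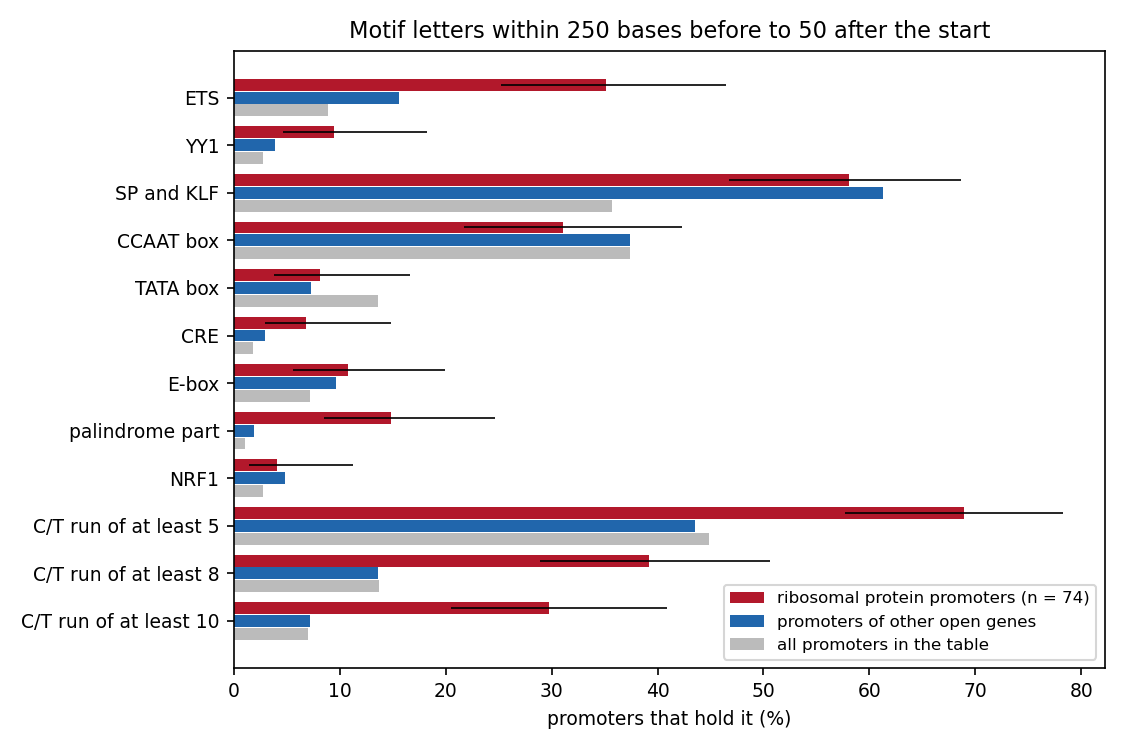
Percentage of RefSeq promoters (x axis) that hold each motif's letters on either strand, or a pyrimidine run of the given length at the start, for 74 ribosomal protein promoters (with 95% Wilson intervals), promoters of other open genes, and all promoters in the table. Ribosomal protein promoters stand above other open genes for ETS (35.1% against 15.6%), the palindrome part (14.9% against 1.87%) and the pyrimidine runs, and not for the GC box of SP and KLF (58.1% against 61.3%).

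The lines below show where these letters stand, from 120 bases before to 20 after the start, with the ETS letters and the palindrome or its part in capitals. Rps6 has the ETS letters and the whole palindrome, as does Rpl26. Rpl12 has the whole palindrome, Rps19 the part once and the whole once, and Rpl7a the part alone. Rps18 and Rpl41 have the ETS letters, the closed Rpl39l the ETS letters too, and the closed Rpl3l neither.
Rps6 (chr4:86857348-86857487, minus strand): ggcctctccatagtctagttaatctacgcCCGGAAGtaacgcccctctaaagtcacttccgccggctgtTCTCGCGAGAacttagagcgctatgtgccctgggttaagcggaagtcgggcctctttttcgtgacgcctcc
Rpl26 (chr11:68901446-68901585, plus strand): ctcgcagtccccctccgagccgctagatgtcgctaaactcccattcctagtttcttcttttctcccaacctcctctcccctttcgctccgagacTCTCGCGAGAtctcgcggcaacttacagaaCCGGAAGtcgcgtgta
Rpl12 (chr2:32961592-32961731, plus strand): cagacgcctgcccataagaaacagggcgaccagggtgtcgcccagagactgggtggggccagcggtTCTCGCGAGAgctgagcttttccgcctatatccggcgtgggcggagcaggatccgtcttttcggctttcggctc
Rps19 (chr7:24884472-24884611, plus strand): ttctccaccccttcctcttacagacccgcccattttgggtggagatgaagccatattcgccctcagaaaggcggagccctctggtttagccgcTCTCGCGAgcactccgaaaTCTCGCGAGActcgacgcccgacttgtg
Rpl7a (chr2:26910687-26910826, plus strand): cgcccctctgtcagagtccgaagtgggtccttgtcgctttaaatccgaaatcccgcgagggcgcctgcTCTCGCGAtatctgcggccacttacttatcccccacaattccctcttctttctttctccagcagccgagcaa
Rps18 (chr17:33955646-33955785, minus strand): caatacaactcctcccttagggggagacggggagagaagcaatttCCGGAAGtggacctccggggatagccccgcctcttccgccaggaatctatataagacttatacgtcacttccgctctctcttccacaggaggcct
Rpl41 (chr10:128549149-128549288, minus strand): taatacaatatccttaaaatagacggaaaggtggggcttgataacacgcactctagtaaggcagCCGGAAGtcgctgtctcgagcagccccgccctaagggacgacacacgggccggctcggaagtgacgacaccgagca
Rpl39l (chr16:10170108-10170247, plus strand): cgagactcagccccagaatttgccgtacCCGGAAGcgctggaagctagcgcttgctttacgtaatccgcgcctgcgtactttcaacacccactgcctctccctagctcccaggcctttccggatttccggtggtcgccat
Rpl3l (chr17:24727706-24727845, plus strand): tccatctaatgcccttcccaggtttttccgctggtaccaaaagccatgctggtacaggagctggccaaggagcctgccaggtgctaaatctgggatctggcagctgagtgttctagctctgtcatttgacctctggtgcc

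In Rps6, on chromosome 4, the ETS letters begin at -91 and the palindrome at -51, and both lie inside the strongest peak of the gene. In Rpl26 the palindrome begins at -26 and the ETS letters at 5, in Rpl12 the palindrome at -54, in Rpl7a its part at -52, in Rps18 the ETS letters at -75 and in Rpl41 at -56, and all of these lie inside the strongest peak too. In Rps19 the part begins at -27 and the whole palindrome at -8, downstream of the strongest peak. Taking 1 promoter for each open member, 19 of 23 with the ETS letters and 6 of 9 with the palindrome part had them inside the strongest peak. So did 24 of 35 with the GC box, 1 of 4 with the YY1 letters and 15 of 20 with CCAAT. For TGACGTCA and TATAAA it was 4 of 5 each, for the E-box 3 of 5 and for the NRF1 letters 2 of 2. Other open genes were not counted in this way, so whether such placement is particular to members was not tested. Across the 74 promoters the median of the first match was -64.5 for ETS and -51 for the palindrome part, counted from RefSeq starts. The median peak centre of -43.5 was counted from the nearest GENCODE TSS over the 78 open members, so it is not on the same scale. A match describes letters only and does not show that a factor was bound.

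Away from promoters, shared peaks were counted as well. Distal here means that the centre of a shared peak was more than 1 kb away from any TSS of a coding gene. Each such peak was assigned to the closest of these TSSs if that was no more than 100 kb away. The 82 ribosomal protein genes had 179 shared distal peaks, a mean of 2.18 ± 3.17 (SD over genes), against 3.46 ± 5.52 over other protein-coding genes, and both medians were 1. The means were 3.72 and 5.75 with replicate 1 alone, 3.15 and 5.33 with replicate 2 alone, and 0.780 and 0.869 among the 50000 strongest peaks of each list, where the gap was smaller. At least 1 was found for 52 of 82 (63.4%), against 64.9% of all protein-coding genes. The sequence nearest to a member was also shorter, with a median of 12.8 kb against 40.8 kb. Per 100 kb of such sequence, ribosomal protein genes had 7.60 distal peaks and other protein-coding genes 4.79. A lower mean per gene thus stood beside a higher count per length. Of the 179, 143 were intergenic, 29 in introns and 7 in exons.

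The 5 highest counts added up to 58 of the 179. Rpl14 had 17, Rplp1 14, Rps24 10 and Rps12 9, and Rpl37a and Rps29 had 8 each. The sequence nearest to Rpl14, Rplp1, Rps24, Rps12 and Rps29 was over 100 kb long. The strongest distal peak was at Rpl14, whose signal was 127 in replicate 1 and 105 in replicate 2, 3.7 kb from the TSS (chromosome 9, 120577196 to 120577345), and its percentile of 98.0 was near the median of the members' promoters. Next were one 88.5 kb from Rpl34 (chromosome 3, 130818816 to 130818965), with 125 and 88, and a second at Rpl14 9.2 kb away, with 117 and 94. A pair at Rpl29, 11.0 and 7.5 kb away, had 104 and 93, and 107 and 88. The nearest gene need not be the one a region acts on.

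Most distal peaks were weaker than the promoters. Their median percentile was 67.0 at the 179 peaks of ribosomal protein genes and 61.4 over the 75905 shared distal peaks given to any gene, and 22 of the 179 lay in the top 10% of both lists, where all 78 promoters lay. No shared distal peak was found for 30 members (36.6%), against 35.1% of other protein-coding genes.

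**Figure D5:**
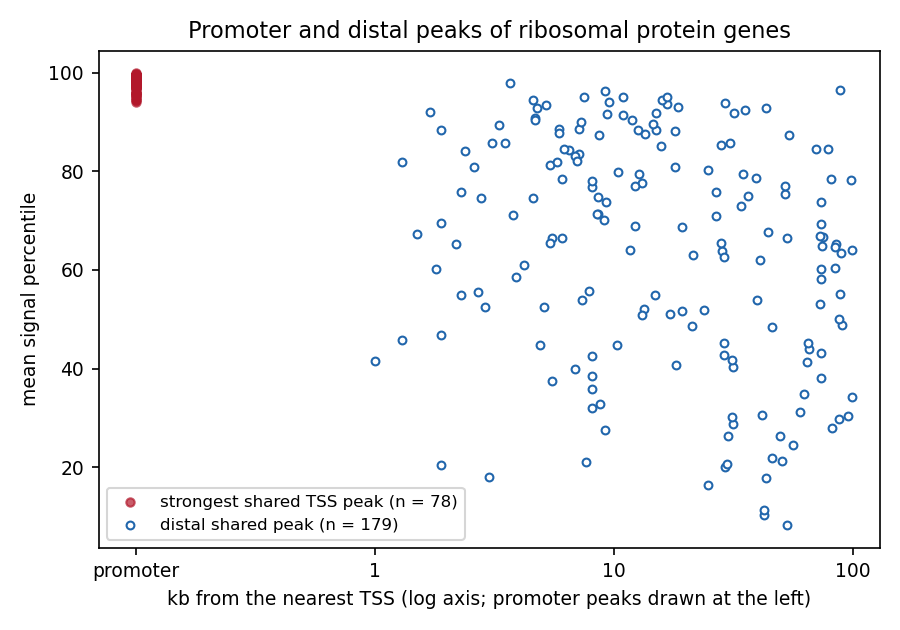
Mean signal percentile (y axis) of the 179 shared distal peaks of ribosomal protein genes by distance in kb from the nearest TSS (log x axis), beside the strongest shared TSS peak of each of the 78 open members, drawn at the left. Promoter peaks lie between 94.2 and 99.9, and distal peaks spread from 8.22 to 98.0.

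Other genes of translation were open as well. These lists were chosen with results of these data known. All 78 mitochondrial ribosomal protein genes, which serve the separate ribosome of the mitochondrion, were open, with a median percentile of 96.9. All 19 genes of ribosome partners and other TOP mRNAs were, with a median of 99.2. Among them Eef1g had signals of 139 and 129, Eef1a1, the main elongation factor that delivers tRNAs, 141 and 122, and Fau, which encodes a ubiquitin-like protein fused to a small subunit protein, 140 and 123. All 17 genes of ribosome biogenesis were open, with a median of 98.0, among them Ncl (nucleolin) with 137 and 126 and Pes1, of the large subunit processing complex, with 106 and 88. The median of the cytosolic ribosomal protein genes, 98.2, lay between that of the mitochondrial and the TOP mRNA genes. Of all protein-coding genes 65.1% were open, and of other genes with a CpG ratio of at least 0.6, 94.5%, with a median percentile of 96.9. Median CpG ratios were 0.761 over the mitochondrial, 0.890 over the TOP mRNA and 0.783 over the biogenesis genes. Whether these lists were open more often than genes of like CpG content was not tested.

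Copies of the genes outside the coding set were mostly closed. Of 293 annotated pseudogenes with a ribosomal protein name and -ps, 6 had a shared peak within 500 bp of their 5′ end (2.05%), where the coding members had 95.1%. The median CpG ratio was 0.359 over these pseudogenes and 0.848 over members. Of other coding genes with a ratio under 0.6, 32.5% were open. Pseudogenes of other genes were not counted, so whether 2.05% is particular to these copies was not tested. They were Rpl21-ps7, Rpl29-ps2, Rpl9-ps3, Rps19-ps10, Rps19-ps12 and Rps7-ps1. Rpl29-ps2 had the strongest peak, with signals of 122 and 104, and begins 160 bp from a coding TSS. The peak of Rps19-ps12, with 27 and 14, was the only one that held the annotated 5′ end. The other 5 strongest peaks were centred at -426 to -143 bp, upstream of their 5′ ends. A further 6 genes with -ps names are annotated as protein-coding, and none of them had a shared TSS peak. Reads from near-identical copies may not be placed uniquely, and how such reads were treated is not given in the sources used here.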

How the data were processed

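The authors deposited, for each of 2 DNase-seq libraries of mouse limb at embryonic day 14.5, peaks, each with a signal value, and hotspots, each with a −log10 q-value, on mm10 per the labels. How reads were aligned, peaks called and signals scaled is not given in the sources used here. On autosomes, X and Y lay 208674 peaks of replicate 1 and 196593 of replicate 2, and 127632 were shared. Genes and TSSs came from GENCODE M21. A percentile is the mid-rank of a peak's signal within its list. Promoters came from RefSeq (GRCm38.p6), matched by symbol, and all 74 equalled the genome. No test was run. Members and lists were chosen with earlier results of these data known. Named genes are the closed members, the 5 strongest and weakest, those with the most TSS or distal peaks, the extremes between replicates, a list of well studied members, and open pseudogenes. The genes paired with members, the translation genes quoted and the motif examples were named after their values were seen. The overlap functions were tested on simulated data. Python 3.11.15, numpy 2.4.6, pandas 2.3.3, scipy 1.17.1 and pysam 0.24.0 were used. Read numbers are unknown, so the absence of a peak says only that the authors called none. Some genes are not reported here.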

Additional observations from a re-analysis of the deposited data

How the results depend on the processing

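No paired analysis was possible because there is 1 group. Of 77 alternative values, 61 stayed within the spread between replicates, the interval, or 1.5 times the count. Among them were counts at or near the whole set, such as 78 of 78 mitochondrial genes, which could not rise by 1.5 times. Settings that only loosen the call could not move these counts, so the tally says little about them. Open members numbered 75 to 79 of 82 where the set was kept, and 80 of 84 with Rpl7l1 and Rpl22l1 added. With Rps3a1 they numbered 79 of 83, and without the paralogues 76 of 76. The share open over all protein-coding genes was lowest among the 50000 strongest peaks, at 55.3%, where 78 members were open. It was 59.1% from the outermost 5′ end, with 75 members, and highest with replicate 1 alone, at 69.4%, with 79 members. The median percentile of open members ran from 98.1 to 98.6 with each replicate alone. Their median position was -46 bp with an overlap of 1 bp, -42 with a window of 250 bp, -45 with 1000 bp, -26 from the outermost 5′ end, and -48 to -47 with each replicate alone. Distal peaks per member numbered 0.780 among the 50000 strongest peaks, 1.71 within 50 kb, and 3.15 to 3.72 with each replicate alone, where peaks need not be shared. Open pseudogenes numbered 3 among the 50000 strongest peaks, 3 with 250 bp and 18 with 1000 bp. In the 150 bp of the strongest peak of 58 members, YY1 letters stood in 1.72% and the GC box in 44.8%, in windows shorter than the promoters. The alternatives with Rps3a1 and without the paralogues were chosen after seeing the data. Reads per library are unknown.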
